A study of Mus musculus with 6 samples.

Results

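The heat shock proteins and their DnaJ partners are mostly chaperones and cochaperones, which bind unfolded proteins and help them to fold. The set described here holds every protein-coding gene whose symbol begins with Hspa, Hspb, Hspd, Hspe, Hsph, Hsp90 or Dnaj, apart from Hspbp1 and Hspbap1, which are binding partners and not chaperones of these families. It has 69 members among the 28822 genes in the table, 26 in the heat shock protein families and 43 in the DnaJ family. RNA was taken from mouse bone marrow-derived macrophages, which had shared a Transwell culture with HT22 cells, a mouse hippocampal neuronal cell line deprived of oxygen and glucose for 2 h. The BW723C86 group, 3 libraries, received BW723C86, an agonist of the serotonin receptor 5-HT2B, and the DMSO group, 3 libraries, received its solvent. Both groups shared the co-culture and the deprivation of the HT22 cells, so neither shows macrophages at rest. A membrane kept the cell types apart, and only the macrophages of the upper chamber were collected. The design text allows BV2 microglial cells or macrophages, and the sample labels name macrophages together with HT22. The dose and the length of treatment were not stated. Nor was it said whether the 3 libraries of a group came from separate cultures or animals, so each p-value rests on the spread among these 3 libraries, which may be technical.

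Chaperones of the HSP70 family grip exposed stretches of unfolded proteins in a cycle driven by ATP. J proteins, named for the J domain that they share with bacterial DnaJ, deliver clients and start ATP hydrolysis, and nucleotide exchange factors such as the HSP110 proteins reset the cycle. HSP90 takes over clients that are nearly folded, many of them kinases and steroid receptors. The endoplasmic reticulum and the mitochondria each have their own HSP70, J proteins and HSP90 or HSP60 machines. Under heat or other proteotoxic stress, heat shock factor 1 binds repeats of the sequence nGAAn in heat shock promoters, and stress in the endoplasmic reticulum acts through separate promoter elements.

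The libraries held between 58841307 and 75931615 counts, so 3 counts amounted to 0.0386 to 0.0523 CPM, counts scaled to a library of fixed size. Levels below are CPM scaled by the trimmed mean of M-values (TMM), log2 fold changes are BW723C86 over DMSO with the standard error (SE) of the fit, and a gene was called changed at a Benjamini-Hochberg adjusted p below 0.05 in edgeR's quasi-likelihood test over 15567 genes. A gene said to be at a value, such as -0.17, has that log2 fold change. Markers of other cell types moved with the groups. All 7 tested neutrophil markers of 10 listed fell, with a summed level of 28.3 to 32.3 CPM in the BW723C86 libraries, against 206 to 217 CPM in the DMSO libraries. All 6 monocyte markers fell, with sums of 1236.3 to 1351.1 CPM with BW723C86 against 3832.4 to 3886.6 CPM with DMSO, and so did all 5 tested lymphocyte and mast cell markers of 7 listed, with sums of 12.5 to 15.1 CPM with BW723C86 against 58.3 to 62.3 CPM with DMSO. Of the 6 tested dendritic cell markers, 4 rose and none fell, and their sums were 2340.2 to 2492.5 CPM with BW723C86 against 507 to 518 CPM with DMSO. The 8 macrophage markers gave 3 that rose and 4 that fell, with sums of 32405 to 33586 CPM with BW723C86 against 37033 to 37886 CPM with DMSO. Single genes made up most of the dendritic, monocyte and macrophage sums. Itgax averaged 2360.5 CPM with BW723C86 against 471.29 CPM with DMSO, Chil3 1104.9 against 3203.1 CPM and Lyz2 29407 against 32877 CPM, so these sums say little about the other markers. Neuronal markers were at or near 0, with sums of 0.375 to 0.924 CPM with BW723C86 against 0 to 0.668 CPM with DMSO, and Map2, Nefl and Dcx had no count in any library. Bulk RNA cannot tell fewer cells of a type from less RNA per cell, and the part of these markers in the chaperone results was not tested.

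The chaperones as a whole moved little in size. Of the 69 members 60 had enough counts to be tested, 8 of them rose with BW723C86, 19 fell and 33 did not pass, and 56 of the 60 had a log2 fold change under 0.5 in size. That is 93.3% of the tested members, beside 71.3% of all tested genes, and among genes with at least 5 CPM in 3 libraries it was 96% of the members beside 81.9% of all such genes. The share called was 45% of the tested members and 42.0% of all tested genes, so that share was near the background. By direction, 13.3% of the tested members rose and 31.7% fell, beside 21.3% and 20.7% of all tested genes. Their median log2 fold change was -0.09, and that of all tested genes was 0.00. The groups did not overlap in 34 of the 60, or 56.7%, and in 52.3% of all tested genes. Among genes with at least 5 CPM in 3 libraries, 7 members rose and 18 fell of 50, or 14% and 36%. Of all such genes 26.7% rose and 26.2% fell, and 53.0% were called in either direction. The summed level of the 69 members was 6253.1, 6504.9 and 6310.5 CPM in the BW723C86 libraries against 6654.3, 6625.0 and 6705.7 CPM in the DMSO libraries, and these sums did not overlap. Scaling by library totals alone moved the median log2 fold change of all genes to -0.07 and gave 3 members that rose and 26 that fell. The count of members that rose was 3 without BW723C86 replicate 3, 5 without DMSO replicate 1 or DMSO replicate 2 and 4 without DMSO replicate 3, and 12 members fell without DMSO replicate 1.

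**Figure D1:**
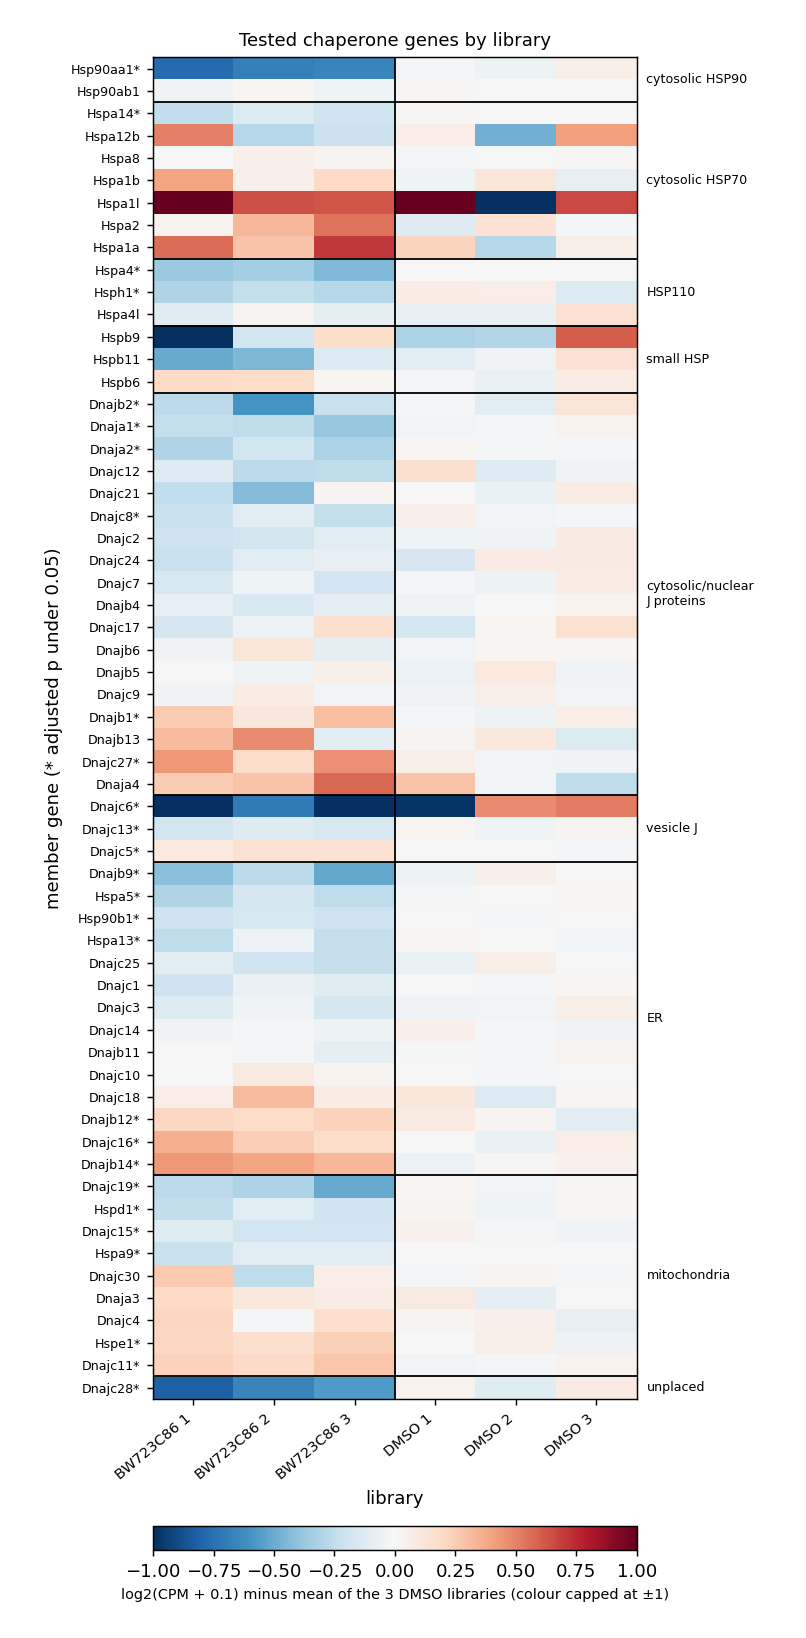
Level of each tested member in each library, relative to that gene's mean over the DMSO libraries, on a log2 scale (colour, capped at both ends). BW723C86 libraries are on the left, DMSO libraries on the right, and members are grouped by compartment. Most rows are pale, and Hsp90aa1, Hspa4, Dnajc6 and Dnajc28 are among the rows lower in the BW723C86 libraries.

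**Figure D2:**
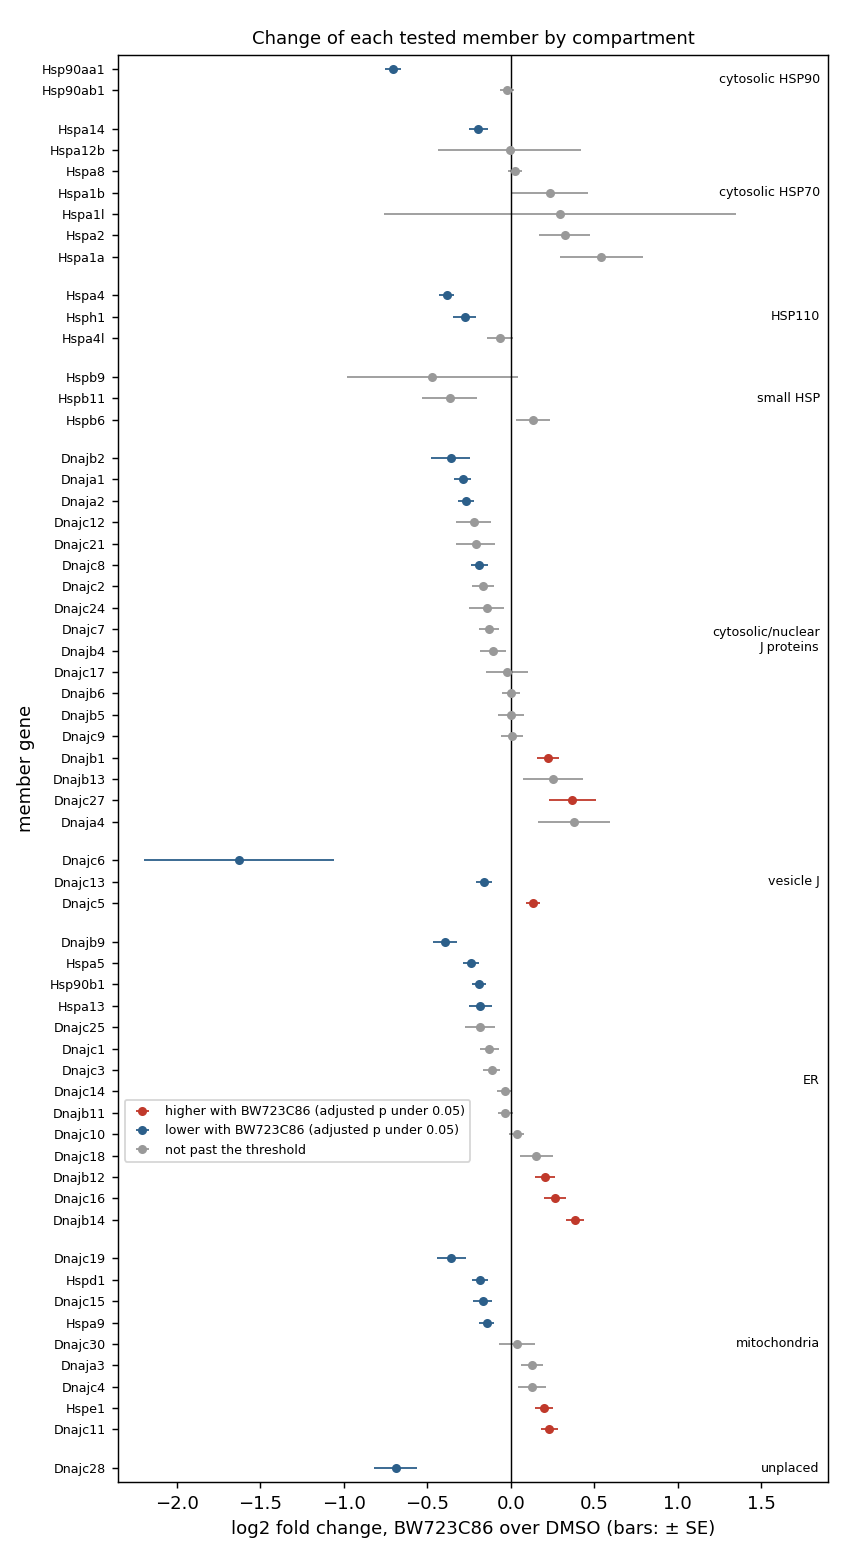
Log2 fold change of BW723C86 over DMSO (x axis) for the 60 tested members by compartment, with bars of 1 SE and colour for the call. The 19 members that fell include Hsp90aa1 at -0.71 and Hspa4 at -0.38, and the 8 that rose include Dnajb14 at 0.39.

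A stricter test asks for a change beyond a fold of 1.2 and not merely beyond 0. It left 4 of the 60 tested members, namely Hsp90aa1, Hspa4 and Dnajc28, which fell, and Dnajb14, which rose. Over all 15567 tested genes 1609 rose and 1599 fell in that test, so members passed it less often than genes at large. Of the 27 changed members, 14 kept their call under every alternative that tested them, 3 that rose and 11 that fell, among the 16 alternatives other than the fold test. They were Dnajb14, Dnajc16 and Dnajc11 among those that rose, and Hsp90aa1, Hspa4, Hsph1, Hspa5, Hsp90b1, Dnajb9, Dnaja1, Dnaja2, Hspd1, Dnajc19 and Dnajc28 among those that fell. The calls of the other 13 members were lost under 1 or more settings or without a library, and these are named with each gene, apart from the losses under a block for the replicate number. Exons of 27 members overlap those of another gene, among them 9 changed ones (Dnaja1, Dnajb14, Dnajb9, Dnajc13, Dnajc19, Hsp90b1, Hspa14, Hspd1 and Hspe1). The library kit marks strand, but the labels do not say whether the authors' counting used it, so reads of these genes may include those of the neighbour. Hspd1, Dnajc19, Hspa9 and Hspe1 also have pseudogenes listed as separate genes, and how reads were shared with them is unknown. Hspd1-ps3 and Dnajc19-ps reached 277 and 75 counts, and Hspa9-ps1, Hspe1-ps2 and Hspe1-ps3 reached 12, 4 and 2.

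Of the cytosolic HSP90 pair, the inducible isoform fell and the constitutive one did not pass the test. Hsp90aa1 encodes HSP90 alpha, the form that stress raises, and Hsp90ab1 encodes HSP90 beta, the form that cells make at all times. Hsp90aa1 had 92.8, 98.5 and 100.3 CPM in the BW723C86 libraries against 158, 154 and 165 CPM in the DMSO libraries. All BW723C86 libraries lay below all DMSO libraries, and the mean in BW723C86 libraries was 61.3% of that in DMSO libraries (log2 fold change -0.71 ± 0.05 SE, adjusted p = 1.1e-07 in edgeR). Hsp90ab1 had 1116.5, 1159.1 and 1108.7 CPM in the BW723C86 libraries against 1154.8, 1139.8 and 1138.0 CPM in the DMSO libraries. These groups overlapped (log2 fold change -0.02 ± 0.04 SE, adjusted p = 0.73 in edgeR). Within each library the count of Hsp90aa1 over that of Hsp90ab1, a ratio that scaling cannot move, was 0.0831, 0.085 and 0.0905 in the BW723C86 libraries against 0.136, 0.135 and 0.145 in the DMSO libraries. The ratios did not overlap, with a log2 difference of -0.69 in the direction BW723C86 minus DMSO. The exact two-sided permutation p was 0.1, which is the smallest that 3 libraries against 3 can give, and it stayed at 0.1 after adjustment over the 4 ratios computed, all of them chosen after their values were seen.

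Many of the cochaperones that help HSP90 with its clients fell. Of 14 tested, 8 fell and none rose, so 57.1% fell. That stood beside 20.7% of all tested genes and 26.2% of genes with at least 5 CPM in 3 libraries. Their median log2 fold change was -0.22 beside 0.00 for all genes. Fkbp5 and Fkbp4 encode immunophilins of the steroid receptor complex, and Chordc1 encodes an HSP90-binding protein. Fkbp5 had 61.9, 63.7 and 64.3 CPM in the BW723C86 libraries against 83.9, 84.1 and 85.1 CPM in the DMSO libraries (log2 fold change -0.41 ± 0.05 SE, adjusted p = 1.1e-05 in edgeR). For Fkbp4 the levels were 69.0, 61.6 and 63.2 CPM in the BW723C86 libraries against 85.5, 92.2 and 89.9 CPM in the DMSO libraries (log2 fold change -0.47 ± 0.06 SE, adjusted p = 2e-05 in edgeR). The third of them, Chordc1, had 33.7, 38.1 and 32.8 CPM in the BW723C86 libraries against 50.3, 48.8 and 49.4 CPM in the DMSO libraries (log2 fold change -0.51 ± 0.06 SE, adjusted p = 3.5e-05 in edgeR). In each of these genes the groups stood apart, and each passed the test against a fold of 1.2. Also lower were Ptges3, which encodes the cochaperone p23, Ppid, which encodes cyclophilin 40, Stip1, which encodes the adaptor between HSP70 and HSP90, and Sugt1 and Tomm70a, with log2 fold changes of -0.44, -0.40, -0.24, -0.24 and -0.21 in that order.

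**Figure D3:**
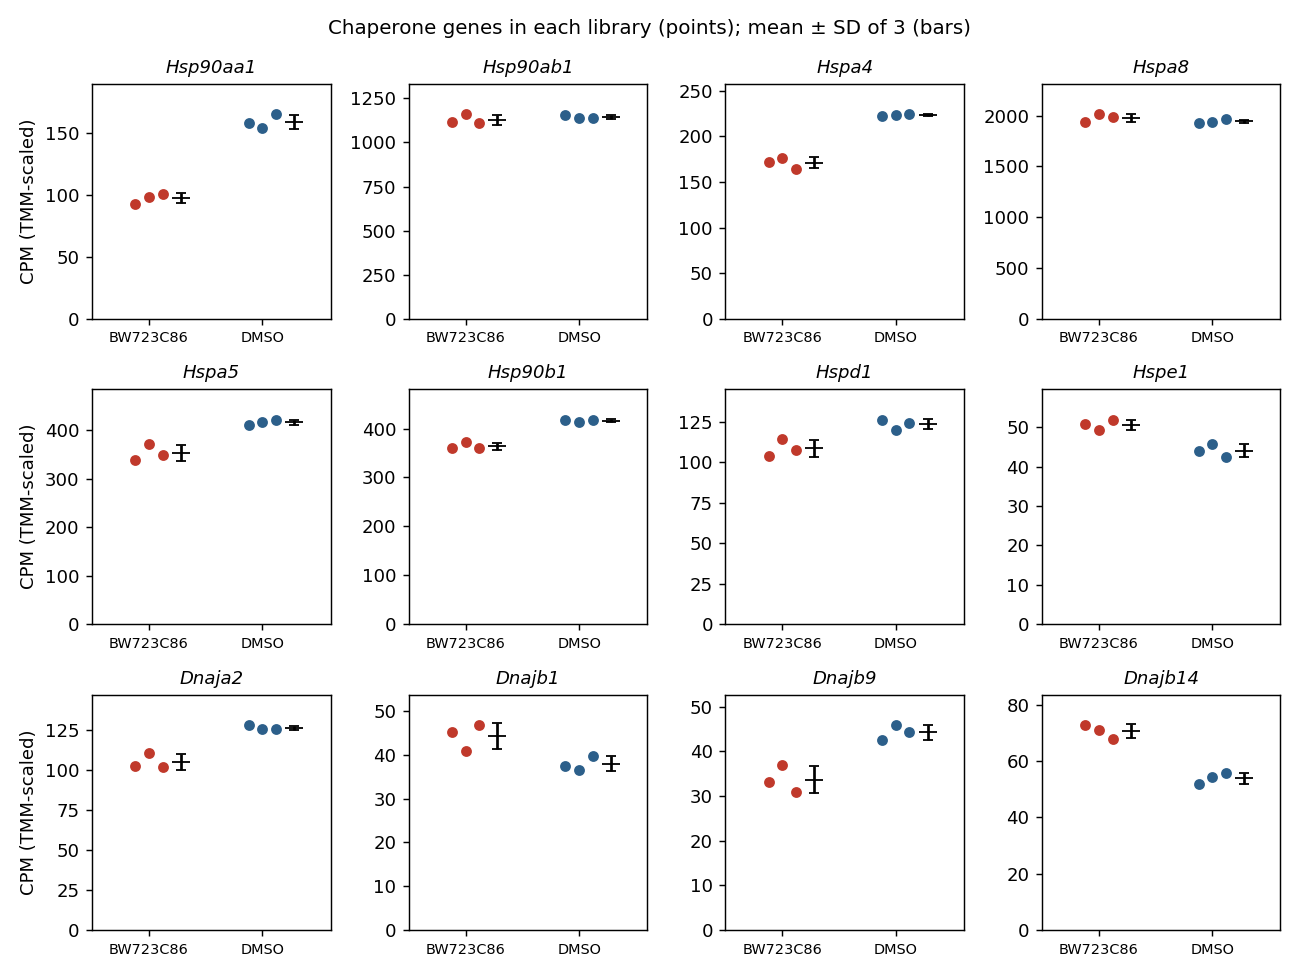
Level in CPM (y axis, from 0) of single members in the BW723C86 libraries (left in each panel) and the DMSO libraries (right), with points for libraries and a bar for the mean with 1 SD, n = 3 each. Hsp90aa1 and Hspa4 have all BW723C86 points below all DMSO points, and the points of Hspa8 and Hsp90ab1 overlap between the groups.

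The constitutive HSP70 did not pass the test, and neither did the stress-inducible pair. Hspa8 encodes HSC70, the cytosolic HSP70 of unstressed cells, and it was the most abundant member per length. Hspa8 had 1937.9, 2012.5 and 1985.3 CPM in the BW723C86 libraries against 1928.2, 1938.2 and 1962.8 CPM in the DMSO libraries, and the groups overlapped (log2 fold change 0.03 ± 0.04 SE, adjusted p = 0.66 in edgeR). Hspa1a and Hspa1b encode HSP70 proteins that stress induces. Their counts were low, with 98, 101 and 113 in the BW723C86 libraries against 104, 55 and 92 in the DMSO libraries for Hspa1a, and 100, 97 and 89 in the BW723C86 libraries against 98, 86 and 95 in the DMSO libraries for Hspa1b. On the CPM scale, which allows for library size, Hspa1a had 1.71, 1.4 and 1.91 CPM in the BW723C86 libraries against 1.34, 0.912 and 1.18 CPM in the DMSO libraries, and these groups did not overlap. Neither gene passed, with log2 fold changes of 0.54 ± 0.25 (SE, adjusted p = 0.1 in edgeR) for Hspa1a and 0.23 ± 0.23 (adjusted p = 0.46) for Hspa1b. The genes are near copies of each other, and the labels do not say how the authors' counting shared reads between them, so each of these levels is uncertain on its own.

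The likeness of Hspa1a and Hspa1b extends to their promoters, which are printed to show how little separates the genes. Over windows of 300 bases the RefSeq promoters (GRCm38.p6) differ at 4 bases, without gaps. The 250 bases before the start are given for Hspa1a (chr17:34972157-34972406, minus strand) and Hspa1b (chr17:34959239-34959488, minus strand). Capitals mark the letters GAA and TTC of GAANNTTC, an inverted pair of heat shock factor units.
Hspa1a: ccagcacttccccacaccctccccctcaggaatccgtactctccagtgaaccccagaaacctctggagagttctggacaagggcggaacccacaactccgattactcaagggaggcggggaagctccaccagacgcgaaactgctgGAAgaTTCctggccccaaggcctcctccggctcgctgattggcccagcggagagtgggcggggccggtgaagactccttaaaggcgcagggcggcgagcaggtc
Hspa1b: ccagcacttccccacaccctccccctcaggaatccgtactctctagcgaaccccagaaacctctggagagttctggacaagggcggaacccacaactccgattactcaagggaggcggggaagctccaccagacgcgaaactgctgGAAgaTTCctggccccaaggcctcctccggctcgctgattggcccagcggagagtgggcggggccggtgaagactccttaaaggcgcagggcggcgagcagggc
In each the motif starts 104 bases before the start of transcription.

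Among the other cytosolic HSP70 members, Hspa14, whose human product is part of the ribosome-associated chaperone complex, fell slightly. It had 38.6, 41.5 and 39.8 CPM in the BW723C86 libraries against 46.1, 45.6 and 45.6 CPM in the DMSO libraries (log2 fold change -0.19 ± 0.05 SE, adjusted p = 0.012 in edgeR), a call that was lost without DMSO replicate 1 (adjusted p = 0.05). Its ribosomal partner Dnajc2 did not pass, at -0.17 (adjusted p = 0.057). Hspa2, best known from the testis, was at 0.32 (adjusted p = 0.11) and rose only without BW723C86 replicate 1, at 0.44. Neither Hspa1l, at 0.29 ± 1.05, nor Hspa12b, at -0.01 ± 0.43 (SE), passed, and their errors were wide. Hspa12a was too low to test, with at most 22 counts.

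Of the 3 HSP110 exchange factors, 2 fell, or 66.7%, beside 20.7% of all tested genes and 26.2% of genes with at least 5 CPM in 3 libraries. Hspa4, the most abundant of the 3 per length, had 173, 176 and 164 CPM in the BW723C86 libraries against 222, 223 and 224 CPM in the DMSO libraries, with no overlap (log2 fold change -0.38 ± 0.04 SE, adjusted p = 1.3e-05 in edgeR). Hsph1 encodes HSP105, a stress-inducible member, and had 28.7, 30.0 and 29.0 CPM in the BW723C86 libraries against 37.2, 37.0 and 32.1 CPM in the DMSO libraries (log2 fold change -0.28 ± 0.07 SE, adjusted p = 0.006 in edgeR). Again every BW723C86 library lay below every DMSO library. Hspa4l did not pass, at -0.06 (adjusted p = 0.53). The pair of the following ratio was chosen after its values were seen. The ratio of Hspa4 to Hspa8 counts within a library was 0.089, 0.0875 and 0.0828 in the BW723C86 libraries against 0.115, 0.115 and 0.114 in the DMSO libraries, a log2 difference of -0.41 with no overlap (exact two-sided permutation p = 0.1, adjusted 0.1).

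Other cochaperones of HSP70 gave 4 genes that rose and 1 that fell of 13, with a median log2 fold change of 0.10. The 38.5% called lay below the 42.0% of all tested genes. Bag3 encodes an exchange factor that ties HSP70 to selective autophagy, and it changed most in size of the 13. Bag3 had 55.8, 52.2 and 52.3 CPM in the BW723C86 libraries against 33.7, 35.6 and 32.1 CPM in the DMSO libraries (log2 fold change 0.66 ± 0.06 SE, adjusted p = 1.5e-06 in edgeR). A relative, Bag1, had 128, 123 and 118 CPM in the BW723C86 libraries against 99.6, 103 and 103 CPM in the DMSO libraries (log2 fold change 0.27 ± 0.05 SE, adjusted p = 0.00045 in edgeR). Gak encodes a kinase related to auxilin and had 200.2, 199 and 199.7 CPM in the BW723C86 libraries against 184, 178 and 184 CPM in the DMSO libraries (log2 fold change 0.13 ± 0.04 SE, adjusted p = 0.021 in edgeR), a call lost without BW723C86 replicate 3 or with any 1 DMSO replicate left out. None of Bag3, Bag1 and Gak overlapped between the groups. The count that rose was 2 without BW723C86 replicate 3, DMSO replicate 1 or DMSO replicate 3. The 1 gene that fell, Hspbp1, was not called with any 1 DMSO replicate left out, and 2 genes fell without BW723C86 replicate 2.

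Small heat shock proteins, which hold unfolding proteins without using ATP, were mostly at few or no counts, apart from Hspb6 and Hspb11. Only 3 of the 7 members were tested, none passed, and the summed level of the 7 was 13.2 to 13.3 CPM in the BW723C86 libraries against 12.8 to 14.7 CPM in the DMSO libraries. Hspb6, which encodes HSP20, supplied most of that sum, and its log2 fold change was 0.14 ± 0.10 (SE, adjusted p = 0.32). Hspb11, which encodes an intraflagellar transport subunit, was at -0.37 (adjusted p = 0.095) and fell without BW723C86 replicate 3, at -0.5. Hspb9 was at -0.47 ± 0.51 (adjusted p = 0.5). Hspb1, the classic heat-inducible HSP25 of mouse, had 8, 0 and 5 counts in the BW723C86 libraries against 0, 5 and 0 in the DMSO libraries. Hspb7 reached 14 counts, and Hspb2 and Hspb8 were listed at 0 in every library.

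The J proteins of the cytosol and nucleus gave calls in both directions. Of 18 tested, 2 rose and 4 fell, which is 11.1% and 22.2%, beside 21.3% and 20.7% of all tested genes, so the calls were no more frequent than the background. Dnaja1 and Dnaja2 encode the main class A partners of cytosolic HSP70. Dnaja1 had 77.6, 76.6 and 70.4 CPM in the BW723C86 libraries against 89.8, 90.8 and 93.5 CPM in the DMSO libraries (log2 fold change -0.29 ± 0.05 SE, adjusted p = 0.00056 in edgeR), and Dnaja2 had 102, 110.4 and 101 CPM in the BW723C86 libraries against 128, 125 and 125 CPM in the DMSO libraries (log2 fold change -0.27 ± 0.05 SE, adjusted p = 0.00053 in edgeR). In both genes all BW723C86 libraries lay below all DMSO libraries. Dnajb1 encodes HSP40, the class B partner that stress induces, and had 45.3, 41.0 and 46.8 CPM in the BW723C86 libraries against 37.6, 36.6 and 39.9 CPM in the DMSO libraries. It was higher in every BW723C86 library (log2 fold change 0.22 ± 0.06 SE, adjusted p = 0.014 in edgeR), but the call was lost under library totals alone and without BW723C86 replicate 3, DMSO replicate 1 or DMSO replicate 2.

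In this compartment 2 further J proteins fell and 1 rose. Dnajb2, which encodes a J protein with ubiquitin-binding motifs, was at -0.36 ± 0.12 (SE, adjusted p = 0.023 in edgeR), a call lost without BW723C86 replicate 2, DMSO replicate 1 or DMSO replicate 3. The spliceosome-associated Dnajc8 was at -0.19 ± 0.05 (adjusted p = 0.0095), lost without BW723C86 replicate 3 or DMSO replicate 1. Dnajc27, which encodes a protein joining a Rab-like GTPase to a J domain, was at 0.37 ± 0.14 (adjusted p = 0.048), and 4 of 15 alternatives kept the call. It was lost with DESeq2's size factors, library totals alone, DESeq2's Wald test, limma-voom or no filter on low counts, without BW723C86 replicate 1 or 3, and with any 1 DMSO replicate left out. The other 12 tested members did not pass. Their log2 fold changes ran between -0.22 for Dnajc12, whose product helps aromatic amino acid hydroxylases fold, and 0.38 for Dnaja4. Dnajb6, which encodes a suppressor of protein aggregation, was at 0.00, and Dnajc9, which encodes a histone chaperone, at 0.01. Dnajc21, a factor of ribosome assembly, was at -0.21, Dnajc24, which serves the synthesis of diphthamide, at -0.14, and Dnajc7, which binds both HSP70 and HSP90, at -0.13. Dnajb4 was at -0.11, the splicing-related Dnajc17 at -0.02, Dnajb5 at 0.00 and Dnajb13, a protein of sperm and cilia, at 0.25. Dnajb3 had 12, 8 and 5 counts in the BW723C86 libraries against 0, 0 and 0 in the DMSO libraries, and its groups did not overlap. It was below the filter on low counts, and without that filter it was called higher (adjusted p = 0.038 in edgeR). Dnajb7 and Dnajb8 reached 7 and 9 counts, also below the filter, and did not pass without it.

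The 3 J proteins of vesicles and endosomes gave small or weakly held calls. All 3 were called, 1 higher and 2 lower, beside 42.0% of all tested genes called in either direction. Dnajc5 encodes cysteine string protein, which protects vesicle fusion proteins, and had 159, 165 and 164 CPM in the BW723C86 libraries against 149, 149 and 148 CPM in the DMSO libraries (log2 fold change 0.13 ± 0.04 SE, adjusted p = 0.024 in edgeR). The call was kept in 9 of 16 alternatives and lost under library totals alone, without a filter on low counts, without BW723C86 replicate 3 or with any 1 DMSO replicate left out. Dnajc13 encodes the endosomal sorting protein RME-8 and had 80.8, 84.4 and 82.2 CPM in the BW723C86 libraries against 93.1, 89.1 and 94.1 CPM in the DMSO libraries (log2 fold change -0.16 ± 0.05 SE, adjusted p = 0.014 in edgeR), lost without DMSO replicate 1 or DMSO replicate 3. Dnajc6 encodes auxilin, which strips clathrin from vesicles with HSC70. It was rare, with 7, 25 and 12 counts in the BW723C86 libraries against 21, 55 and 73 in the DMSO libraries. The groups overlapped, and the log2 fold change of -1.63 ± 0.57 (SE, adjusted p = 0.035) was not called with limma-voom or without BW723C86 replicate 1, BW723C86 replicate 3, DMSO replicate 2 or DMSO replicate 3.

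In the endoplasmic reticulum, the HSP70 and the HSP90 of the lumen fell and 3 J proteins of the membrane rose. Of 14 tested members 3 rose and 4 fell, which is 21.4% and 28.6%, beside 21.3% and 20.7% of all tested genes, and the 50% called in either direction was near the background. Hspa5 encodes BiP, the HSP70 of the lumen, and had 338, 371 and 349.5 CPM in the BW723C86 libraries against 412, 416 and 421 CPM in the DMSO libraries (log2 fold change -0.24 ± 0.05 SE, adjusted p = 0.001 in edgeR). Hsp90b1 encodes GRP94, the HSP90 of the lumen, and had 359.7, 373 and 360.4 CPM in the BW723C86 libraries against 418, 413 and 417 CPM in the DMSO libraries (log2 fold change -0.19 ± 0.04 SE, adjusted p = 0.0022 in edgeR). Both genes had every BW723C86 library below every DMSO library. Dnajb9 encodes ERdj4, a BiP partner, and had 33.1, 36.9 and 30.9 CPM in the BW723C86 libraries against 42.6, 45.8 and 44.3 CPM in the DMSO libraries (log2 fold change -0.39 ± 0.07 SE, adjusted p = 0.00055 in edgeR). Hspa13, which encodes a microsomal HSP70 relative, was at -0.18 ± 0.07 (SE, adjusted p = 0.046), and 8 of 16 alternatives kept its call. It was lost with upper quartile scaling or limma-voom, without BW723C86 replicate 1 or 3, and with any 1 DMSO replicate left out.

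Dnajb14 and Dnajb12 encode J proteins that span the membrane with the J domain facing the cytosol. Dnajb14 had 72.7, 71.1 and 67.8 CPM in the BW723C86 libraries against 51.8, 54.4 and 55.7 CPM in the DMSO libraries, and it was the largest rise among the called members (log2 fold change 0.39 ± 0.05 SE, adjusted p = 6.7e-05 in edgeR). Dnajb12 had 45.0, 44.5 and 45.8 CPM in the BW723C86 libraries against 41.5, 39.7 and 36.2 CPM in the DMSO libraries (log2 fold change 0.20 ± 0.06 SE, adjusted p = 0.017 in edgeR). Its call was lost under library totals alone and without BW723C86 replicate 3 or DMSO replicate 3. The third, Dnajc16, had 42.4, 39.1 and 37.5 CPM in the BW723C86 libraries against 33.1, 31.5 and 34.5 CPM in the DMSO libraries (log2 fold change 0.26 ± 0.07 SE, adjusted p = 0.0055 in edgeR), and its groups stood apart too. The remaining 7 did not pass, with log2 fold changes between -0.18 for Dnajc25 and 0.15 for Dnajc18. They include Dnajb11, which encodes ERdj3, at -0.03, Dnajc3, which encodes P58IPK, at -0.11, and Dnajc10, which encodes the disulfide reductase ERdj5, at 0.04. Dnajc1, which encodes ERdj1, was at -0.13 and Dnajc14 at -0.04.

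The endoplasmic reticulum stress response element, which the factors NF-Y and ATF6 bind together, stood in the promoters of Hspa5 and Hsp90b1, which are printed for that reason. It reads CCAAT and, after 9 bases of any kind, CCACG, which on the other strand is CGTGG, 9 bases and ATTGG, and was searched on both strands. It lay in the 300-base RefSeq windows of 37 of 27025 genes, or 0.137%, and of 3 of the 56 members with a window, Hspa5, Hsp90b1 and Dnajc3. The 250 bases before the start are given for Hspa5 (chr2:34771840-34772089, plus strand, GRCm38.p6) and Hsp90b1 (chr10:86705445-86705694, minus strand, GRCm38.p6), with the fixed letters of the element in capitals.
Hspa5: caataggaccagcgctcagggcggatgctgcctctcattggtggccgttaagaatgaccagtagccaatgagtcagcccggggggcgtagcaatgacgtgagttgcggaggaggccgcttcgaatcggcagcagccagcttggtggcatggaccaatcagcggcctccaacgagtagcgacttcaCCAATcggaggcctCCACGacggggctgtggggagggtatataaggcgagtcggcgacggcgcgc
Hsp90b1: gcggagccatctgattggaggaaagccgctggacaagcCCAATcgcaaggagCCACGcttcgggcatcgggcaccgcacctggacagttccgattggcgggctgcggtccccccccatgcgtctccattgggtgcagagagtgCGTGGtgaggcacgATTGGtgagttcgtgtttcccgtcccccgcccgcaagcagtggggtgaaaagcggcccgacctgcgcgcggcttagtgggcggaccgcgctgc
Hsp90b1 carried 2 copies, in opposite orientations, and Hspa5 carried 1, which begins 65 bases before the start. Hspa5 and Hsp90b1 fell, and Dnajc3 did not pass. A match of letters is a description and does not show binding.

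Folding enzymes and cochaperones of the endoplasmic reticulum outside the families gave 6 genes that rose and 1 that fell of 16, with a median log2 fold change of 0.10. The 43.8% called was near the 42.0% of all tested genes. The 37.5% that rose stood beside 21.3% of all and 26.7% of genes with at least 5 CPM in 3 libraries. Ero1l, which encodes the oxidase that recharges protein disulfide isomerase, had 118, 132 and 121 CPM in the BW723C86 libraries against 191, 191 and 199 CPM in the DMSO libraries (log2 fold change -0.65 ± 0.05 SE, adjusted p = 4.8e-07 in edgeR). Sil1 encodes an exchange factor of BiP and had 37.7, 32.3 and 38.3 CPM in the BW723C86 libraries against 23.2, 25.9 and 22.1 CPM in the DMSO libraries (log2 fold change 0.60 ± 0.08 SE, adjusted p = 6.3e-05 in edgeR). Calr encodes the lectin chaperone calreticulin and had 753, 712 and 731 CPM in the BW723C86 libraries against 592, 602 and 576 CPM in the DMSO libraries (log2 fold change 0.31 ± 0.04 SE, adjusted p = 7.9e-05 in edgeR). The groups of all 3 genes stood apart. Also higher were Sdf2l1, Pdia4, Ero1lb and Hyou1, at 0.49, 0.33, 0.17 and 0.14 in that order. Without BW723C86 replicate 2, 4 genes of the list fell. Hspa5, which fell, and Calr, which rose, were paired for a ratio after these values were seen. The separation of that ratio was thus given by the choice. The ratio of Hspa5 to Calr counts within a library was 0.449, 0.521 and 0.478 in the BW723C86 libraries against 0.696, 0.69 and 0.732 in the DMSO libraries, a log2 difference of -0.55 with no overlap (exact two-sided permutation p = 0.1, adjusted 0.1).

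In mitochondria, the HSP70 and the HSP60 fell and the HSP10 that caps HSP60 rose. Of 9 tested members 2 rose and 4 fell, which is 22.2% and 44.4%, beside 21.3% and 20.7% of all tested genes. Among genes with at least 5 CPM in 3 libraries the shares were 26.7% and 26.2%. Hspa9 encodes mortalin, the HSP70 of the matrix and of protein import, and had 259, 282 and 281 CPM in the BW723C86 libraries against 302, 303 and 304 CPM in the DMSO libraries (log2 fold change -0.15 ± 0.05 SE, adjusted p = 0.022 in edgeR). The call was lost without BW723C86 replicate 1 or with any 1 DMSO replicate left out. Hspd1 encodes HSP60 and had 104, 114 and 107 CPM in the BW723C86 libraries against 126, 119.8 and 124 CPM in the DMSO libraries (log2 fold change -0.19 ± 0.05 SE, adjusted p = 0.0078 in edgeR). Hspe1 encodes HSP10 and had 50.7, 49.2 and 51.8 CPM in the BW723C86 libraries against 43.8, 45.8 and 42.5 CPM in the DMSO libraries (log2 fold change 0.20 ± 0.05 SE, adjusted p = 0.01 in edgeR). Neither of the last 2 genes overlapped between the groups, but the rise of Hspe1 was lost under some settings. These were library totals alone and leaving out BW723C86 replicate 3 or DMSO replicate 3. Hspe1 and Hspd1, called in opposite directions, were paired for a ratio after these values were seen. The ratio of Hspe1 to Hspd1 counts within a library was 0.488, 0.431 and 0.482 in the BW723C86 libraries against 0.347, 0.382 and 0.341 in the DMSO libraries, a log2 difference of 0.39 with no overlap (exact two-sided permutation p = 0.1, adjusted 0.1).

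Hspd1 and Hspe1 stand head to head on chromosome 1 and are read in opposite directions, so the stretch between their starts is shown. In the RefSeq annotation of GRCm38.p6, a start of Hspd1 lies upstream of that of Hspe1, with 215 bases between them (chr1:55087933-55088147, plus strand, which is the reading direction of Hspe1). Another Hspd1 start lies beyond the start of Hspe1 and nearer to it, so the genes overlap from there. Capitals mark a run of heat shock factor units, TTC and GAA in turn with NN between them.
Hspd1-Hspe1 between starts: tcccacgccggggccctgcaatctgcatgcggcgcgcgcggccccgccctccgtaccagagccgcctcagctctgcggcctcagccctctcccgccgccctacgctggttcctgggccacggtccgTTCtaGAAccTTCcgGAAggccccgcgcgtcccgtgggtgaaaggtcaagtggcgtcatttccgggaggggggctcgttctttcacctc
The windows of Hspe1 and of the upstream Hspd1 start share 285 of 300 bases, and the run begins 89 bases before the start of Hspe1. Exons of the 2 genes overlap by 112 bases on opposite strands.

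**Figure D4:**
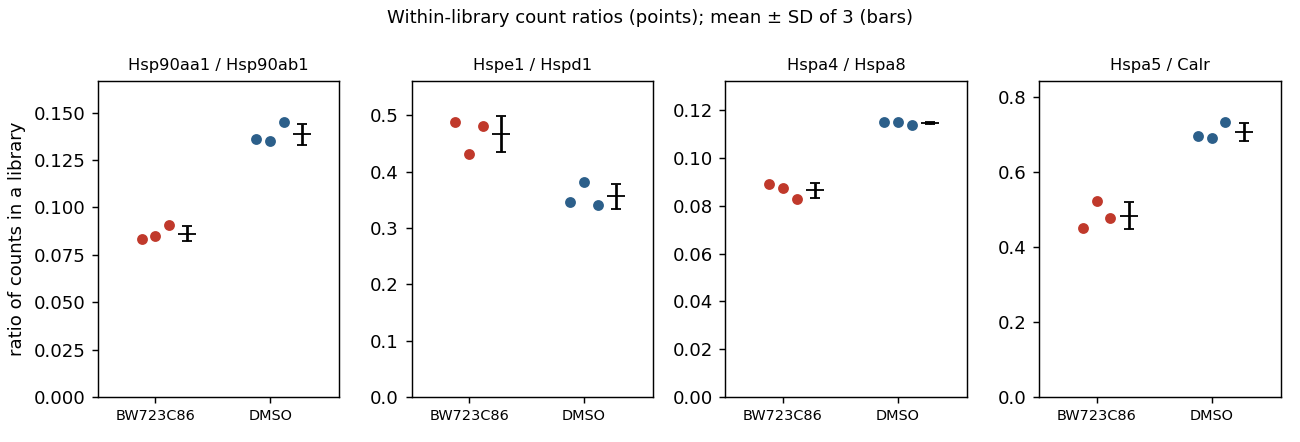
Ratio of the counts of 2 genes within each library (y axis, from 0) for 4 pairs, with BW723C86 libraries left and DMSO libraries right in each panel, points for libraries and bars for the mean with 1 SD, n = 3 each. The points of the groups do not overlap in any of the 4 panels, and Hspe1 over Hspd1 is the only pair with higher BW723C86 points. All 4 pairs were chosen after their values were seen.

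Other mitochondrial J proteins moved in both directions. Dnajc19 and Dnajc15 encode related regulators of the import motor. Dnajc19 was at -0.36 ± 0.09 (SE, adjusted p = 0.0049 in edgeR). Dnajc15 was at -0.17 ± 0.06 (adjusted p = 0.027), with the call lost without BW723C86 replicate 3 or with any 1 DMSO replicate left out. Dnajc11, whose product binds the complex that shapes the inner membrane, had 57.4, 55.9 and 59.3 CPM in the BW723C86 libraries against 48.1, 48.6 and 50.3 CPM in the DMSO libraries (log2 fold change 0.23 ± 0.05 SE, adjusted p = 0.003 in edgeR). Dnaja3, which encodes TID1, a partner of mortalin, was at 0.13 (adjusted p = 0.14), Dnajc4 at 0.13 (adjusted p = 0.24) and Dnajc30 at 0.04 (adjusted p = 0.82). The counts that fell in this compartment were 2 with any 1 DMSO replicate left out.

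Of 13 mitochondrial proteases and import factors 3 rose and 2 fell, with a median log2 fold change of -0.04. The 38.5% called lay below the 42.0% of all tested genes. Yme1l1 encodes a protease of the inner membrane and had 67.8, 68.6 and 65.5 CPM in the BW723C86 libraries against 90.7, 91.4 and 96.8 CPM in the DMSO libraries (log2 fold change -0.47 ± 0.05 SE, adjusted p = 5.8e-06 in edgeR). Spg7 encodes a subunit of another inner membrane protease and had 51.8, 47.9 and 49.4 CPM in the BW723C86 libraries against 40.3, 43.6 and 43.2 CPM in the DMSO libraries (log2 fold change 0.23 ± 0.06 SE, adjusted p = 0.0061 in edgeR). Grpel1, which encodes the exchange factor of mortalin, had 63.1, 58.9 and 63.0 CPM in the BW723C86 libraries against 54.2, 54.1 and 54.9 CPM in the DMSO libraries (log2 fold change 0.18 ± 0.05 SE, adjusted p = 0.013 in edgeR). The call of Grpel1 was lost under library totals alone and without BW723C86 replicate 3, DMSO replicate 1 or DMSO replicate 2. With any 1 of those 3 libraries left out, 1 gene of the list rose, and 1 fell without DMSO replicate 1.

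Dnajc28, whose place in the cell was not assigned, was among the largest changes. It had 4.17, 4.66 and 4.97 CPM in the BW723C86 libraries against 7.6, 6.81 and 7.83 CPM in the DMSO libraries (log2 fold change -0.69 ± 0.13 SE, adjusted p = 0.00071 in edgeR), and the groups stood apart. Dnajc22 was too low to test, with at most 4 counts.

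Chaperonin and prefoldin subunits, which fold actin and tubulin, gave 1 gene that rose and 6 that fell of 14, with a median log2 fold change of -0.11. The 50% called stood beside 42.0% of all tested genes. The 42.9% that fell stood beside 20.7% of all and 26.2% of genes with at least 5 CPM in 3 libraries. The genes that fell were mostly prefoldin subunits, namely Pfdn1, Pfdn2, Vbp1, Pfdn4 and Pfdn6. Of the chaperonin subunits only Cct8 was called, at -0.21 (adjusted p = 0.0096 in edgeR). Tcp1, Cct2, Cct3, Cct4, Cct5, Cct6a and Cct7 did not pass. Pfdn6 had 26.6, 26.2 and 27.8 CPM in the BW723C86 libraries against 35.7, 36.7 and 34.2 CPM in the DMSO libraries (log2 fold change -0.40 ± 0.06 SE, adjusted p = 0.00015 in edgeR). Vbp1 had 21.3, 24.7 and 20.3 CPM in the BW723C86 libraries against 33.5, 30.1 and 31.3 CPM in the DMSO libraries (log2 fold change -0.52 ± 0.08 SE, adjusted p = 0.00019 in edgeR). Pfdn4 had 9.1, 8.56 and 7.33 CPM in the BW723C86 libraries against 11.7, 11.9 and 10.2 CPM in the DMSO libraries (log2 fold change -0.44 ± 0.11 SE, adjusted p = 0.0064 in edgeR). Each was lower in every BW723C86 library. The 1 gene that rose was Pfdn5, at 0.18, and no gene of the list rose with any 1 library other than BW723C86 replicate 2 left out. The count that fell was 11 without BW723C86 replicate 2 and 3 without BW723C86 replicate 3.

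Heat shock factor 1, the stress regulator of these families, did not pass. Hsf1 had 27.5, 22.2 and 26.2 CPM in the BW723C86 libraries against 22.6, 23.0 and 23.2 CPM in the DMSO libraries, and the groups overlapped (log2 fold change 0.14 ± 0.08 SE, adjusted p = 0.18 in edgeR); it passed only without BW723C86 replicate 2, at 0.21. Hsf4, a related factor best known from the lens, had 3.71, 2.14 and 2.94 CPM in the BW723C86 libraries against 1.09, 0.978 and 1.11 CPM in the DMSO libraries (log2 fold change 1.46 ± 0.24 SE, adjusted p = 0.00026 in edgeR). Hsbp1 encodes a small protein that binds heat shock factors and had 96.2, 105 and 102 CPM in the BW723C86 libraries against 88.5, 86.3 and 91.3 CPM in the DMSO libraries (log2 fold change 0.19 ± 0.05 SE, adjusted p = 0.0071 in edgeR), with the call lost under library totals alone and without BW723C86 replicate 3 or DMSO replicate 2. Of the 4 tested genes of this list 2 rose and none fell, a share of 50% beside 21.3% of all tested genes that rose, 1 rose without BW723C86 replicate 3 or DMSO replicate 2, and 3 rose without BW723C86 replicate 2.

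Promoter letters were searched in the 56 members that have a window, and 13 members have none, among them Hsp90aa1, Hspa8 and Hsp90ab1. The inverted pair GAANNTTC lay in windows of 12 of the 56 members, 5 of the 22 changed ones, and in 9.04% of 27025 genes. TTCNNGAA lay in 6 members, 3 of the changed ones, and in 9.6% of genes. Each of these pairs is its own reverse complement. The longer motif of 3 units, TTC, GAA and TTC with NN between them, or on the other strand GAA, TTC and GAA, holds both pairs and lay in 4 members and 0.662% of genes. The 4 members were Hspd1 and Hsph1, which fell, Hspe1, which rose, and Dnajb6, which did not pass. In Hsph1 the 3 units lie after the start of transcription.

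Levels per length set the members side by side. Hspa8 averaged 460 CPM per kb of exon in the BW723C86 libraries against 452 in the DMSO libraries, and Hsp90ab1 averaged 376 with BW723C86 against 382 with DMSO. The lumenal Hsp90b1 and Hspa5 came next, with Hsp90b1 at 90.3 CPM per kb with BW723C86 against 103 with DMSO and Hspa5 at 83.4 with BW723C86 against 98.4 with DMSO. Hspa9 averaged 63.5 CPM per kb with BW723C86 against 70.3 with DMSO. Hspd1 averaged 41.1 with BW723C86 against 46.7 with DMSO, and Hsp90aa1 24.7 with BW723C86 against 40.4 with DMSO. The shares that follow are of summed CPM, not divided by length. Cytosolic HSP70 members made up 31.9% of the summed level of the families in the BW723C86 libraries against 30.0% in the DMSO libraries, and endoplasmic reticulum members 21.6% with BW723C86 against 22.3% with DMSO. For cytosolic HSP90 the shares were 19.3% with BW723C86 against 19.6% with DMSO, for mitochondrial members 9.79% with BW723C86 against 9.81% with DMSO, and for cytosolic and nuclear J proteins 9.58% with BW723C86 against 9.98% with DMSO.

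**Figure D5:**
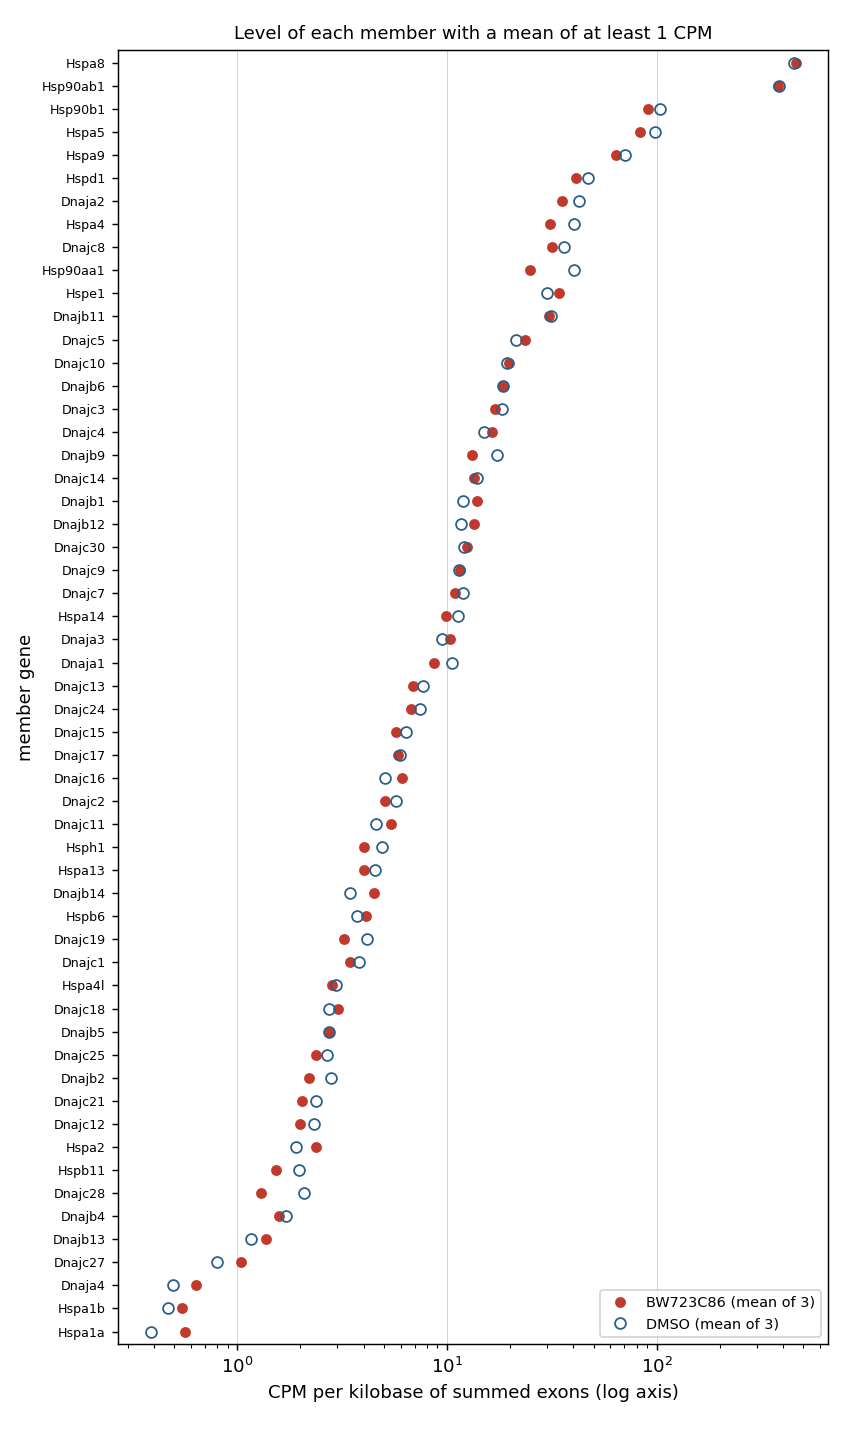
Mean level in CPM per kb of summed exon length (x axis, log scale) of members with a mean of at least 1 CPM, with a BW723C86 and a DMSO point for each. Hspa8, at 460 in BW723C86 libraries against 452 in DMSO libraries, and Hsp90ab1 lead, and Hsp90aa1 shows a wide gap between its points.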

How the data were processed

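The deposited table holds estimated counts per gene for 6 libraries, which the authors made with fastp, HISAT2 and StringTie in their processing, per the submitters' processing notes, which also name edgeR and the builds GRCm39 and GRCh38 without saying which applied. The labels' protocols describe poly(A) selection and a strand-marking kit read in pairs. All values were whole numbers, and values of 4 and 8 were more frequent than their neighbours, so the reads behind 1 count are uncertain and counts divided by 4 were run as an alternative. Symbols came from GENCODE M21, which matched 27005 of 28822 IDs, and protein-coding status and exon lengths from the same release. Promoter windows came from RefSeq (GRCm38.p6).

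Low genes were removed with filterByExpr, counts were scaled by TMM and tested with edgeR 4.0.16 (robust quasi-likelihood fit, R 4.3.3, limma 3.58.1, DESeq2 1.42.0), and p-values were adjusted over all 15567 genes. The script was tested on simulated counts. Library totals lay between 58841307 and 75931615, and floors of 3 counts cover counting error only. Figures were drawn with matplotlib 3.10.9 (Python 3.11.15).

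The members and lists were chosen with earlier results of these data known. Values in every library are given for changed members of at least 5 CPM with an absolute log2 fold change of at least 0.5, for Hspa, Hspd, Hspe, Hsph and Hsp90 members of at least 50 CPM, and for Hsf1 and up to 3 changed genes of smallest p in each partner list. Per-library values of other members, and the partner genes named beyond these, were chosen after their values were seen. Alternatives were other scalings, DESeq2, limma-voom, a non-robust fit, other filters, a fold of 1.2, a replicate block and leaving out each library. No library was left out of the results. Replicates differed by more than counting noise, and BW723C86 replicate 2 differed most. The chi-square per degree of freedom, a measure of that spread, was 35.5 between it and replicate 1 and 24.4 between it and replicate 3. Between BW723C86 replicates 1 and 3 it was 11.1, and between DMSO libraries 9.83 to 10.4. Without BW723C86 replicate 2, 3440 genes rose and 3713 fell, against 3319 and 3215 with every library.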

Additional observations from a re-analysis of the deposited data

How the results depend on the processing

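Direction was checked for the tested members and for the partner genes given with values in every library. None of these that was called changed had its direction turned by any alternative run. Members near 0 that did not pass, such as Hspa8 and Dnajb6, changed sign under some settings. Of these single-gene results 1196 stayed on their side of the threshold, 102 no longer passed it and 14 newly passed it, and the cause was not tested. For all other genes only the counts were compared. Against a fold of 1.2 instead of 0, the counts that rose and fell were 1609 and 1599 for all genes and 1 and 3 for the members. By compartment, the counts that fell were then 1 for HSP110, 1 for cytosolic HSP90 and 1 for the unplaced members. They were 0 for cytosolic HSP70, cytosolic and nuclear J proteins, and vesicle, endoplasmic reticulum and mitochondrial members. The 1 member that rose was in the endoplasmic reticulum. In the partner lists that test gave 1 heat shock factor that rose, 5 HSP90 cochaperones that fell, and 1 that rose and 0 that fell for HSP70 cochaperones. It gave 0 and 2 for chaperonin and prefoldin, 0 and 1 for mitochondrial quality control, and 2 folding enzymes that rose. The count of folding enzymes that fell in that test is not given here, and Ero1l fell in the main test, at -0.65. Under library totals alone, 3 members rose, and the counts that fell were 1 small heat shock protein, 7 cytosolic and nuclear J proteins and 7 endoplasmic reticulum members, while 0 cytosolic and nuclear, 0 vesicle and 1 mitochondrial member rose. The same scaling gave 1 heat shock factor, 2 HSP70 cochaperones, 0 chaperonin and 1 mitochondrial quality gene that rose, and 2 HSP70 cochaperones, 4 mitochondrial quality and 4 folding genes that fell. Of the cytosolic and nuclear J proteins, 1 rose with DESeq2's size factors, DESeq2's Wald test, limma-voom, at least 5 CPM in 3 libraries or the replicate block. For vesicle members 0 rose without a filter on low counts and under the replicate block, and 1 fell with limma-voom, at least 5 CPM in 3 libraries or counts divided by 4. The chaperonin list had 0 that rose with limma-voom, without a filter or with a non-robust fit, and 2 folding genes fell with limma-voom. With at least 5 CPM in 3 libraries, 1 gene of the heat shock factor list rose. It was Hsbp1, which is not itself a heat shock factor, and Hsf4 lay below that filter.

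With 1 library left out, the members that rose numbered 3 to 8 and those that fell 12 to 21. For those that rose and those that fell in that order, the ranges were 0 to 1 and 0 to 1 for cytosolic HSP70, 0 to 2 and 2 to 4 for cytosolic and nuclear J proteins, 0 to 1 and 0 to 2 for vesicle members, and 1 to 2 and 2 to 4 for mitochondrial members. Small heat shock proteins that fell numbered 0 to 1. Of the heat shock factor list, which includes Hsbp1, 1 to 3 genes rose. The other lists gave 2 to 6 and 0 to 2 HSP70 cochaperones and 0 to 1 and 3 to 11 chaperonin and prefoldin genes. They also gave 1 to 3 and 1 to 3 mitochondrial quality genes, and 4 to 8 and 1 to 4 folding genes.

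With the replicate number as a block, 3123 genes rose and 3056 fell, with 6 and 17 members. The calls of Dnajc27, Dnajc5, Hspa13 and Dnajc15 were lost, so 3 mitochondrial members fell. Same-numbered libraries did not deviate together, with correlations of 0.031, -0.0247 and -0.00481, and not every library correlated best with its own number. The 4 within-library ratios were added after seeing the data. Of the 9 members below the filter on low counts, Dnajb3 was called higher without the filter, 6 did not pass and 2 were at 0 in every library.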
